A study of Homo sapiens with 4 samples.

Results

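The DNA replication machinery was followed in the human prostate cancer line 22Rv1 through 41 genes that are known as E2F targets or as parts of the replication fork. They were taken from a gene count table by name: all 41 were found, each on 1 row, among 57014 named rows, and all 41 passed the filter on low counts that left 18043 genes for testing. Poly(A)-selected RNA was sequenced in 4 libraries. 2 control libraries have a wild-type genotype and carry sgGFP in their names, and 2 knockout libraries have a CD276 knockout genotype and carry sgCD276. CD276 encodes B7-H3, a cell-surface member of the B7 family of immune checkpoints. All libraries share the line and its growth medium, RPMI-1640 with fetal bovine serum. The labels name neither the guide sequences nor whether the knockout cells were a pool or a single clone. The design calls the replicates biological, but no label says whether they were grown as separate cultures. The p-values therefore reflect only how these libraries vary, which may be technical.

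Before a cell divides it copies its genome once. The origin recognition complex with CDC6 and CDT1 loads the MCM helicase ring on DNA in G1. CDC45 and the GINS complex then switch the helicase on, polymerase alpha with primase starts each strand, and polymerases epsilon and delta extend it on the sliding clamp PCNA, which the RFC complex loads. E2F transcription factors switch most of these genes on at the end of G1, when cyclin-dependent kinases release them from RB1. In RNA from a whole culture, fewer cells in S phase and less RNA per cell cannot be told apart.

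The promoters were searched for short E2F-type elements. RefSeq promoter windows (GRCh38.p14, 250 bases before to 50 after each start) were at hand for 33 of the 41 genes. The search, on both strands, was for 4 exact E2F-type octamers, TTTGGCGC, TTTGCCGC, TTTCGCGC and TTTCCCGC, which can overlap each other when read on opposite strands. Of the 33 genes, 20 held at least 1 match (60.6%), against 720 of 11422 tested genes with a window (6.30%), and 3.31% of all 35116 windows. The 4 stretches below are printed because they show this element in a gene that rose in the knockouts, one that fell and 2 that did not pass the test. Capitals mark the matches, on either strand.
MCM6: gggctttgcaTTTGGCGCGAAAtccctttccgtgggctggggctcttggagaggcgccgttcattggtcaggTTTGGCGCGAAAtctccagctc
POLE: gggtgggagcGCGCCAAAtttctcccct
E2F1: tttcGCGGCAAAaaggaTTTGGCGCgtaa
PCNA: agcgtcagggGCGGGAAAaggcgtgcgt
The MCM6 stretch (chr2:135876512-135876605, minus strand) lies from 162 to 69 bases before the RefSeq start and overlaps no annotated exon. It holds 4 matches in 2 identical 12-base blocks, each made of 2 overlapping octamers. The POLE stretch (chr12:132687343-132687370, minus strand) has 1 match, the E2F1 stretch (chr20:33686394-33686422, minus strand) 2, and the PCNA stretch (chr20:5126664-5126691, minus strand) 1. The POLE and E2F1 stretches overlap exons annotated in GENCODE 29, and the PCNA stretch does not. Matches occurred in 2 of 4 genes that rose and had a window, 2 of 2 that fell and 16 of 27 that were not called. A match is a string of letters and does not show binding.

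The deposited counts summed to 20079050 to 25802417 per library, and the 41 genes took 0.609% and 0.612% of them in control replicates 1 and 3, 0.687% in knockout replicate 1 and 0.549% in knockout replicate 3. Levels below are normalized CPM, counts scaled by library total and by trimmed mean of M-values. They are given for control replicates 1 and 3 and then knockout replicates 1 and 3. Differences between groups are on the log2 scale, knockout minus control, ± SE. The words rose and fell are kept for an adjusted p under 0.05 in the quasi-likelihood test of edgeR, with Benjamini-Hochberg adjustment across the 18043 genes. The targeted gene was checked first: CD276 was at 47.4 and 54.4 in the controls against 23.6 and 26.2 in the knockouts (-1.03 ± 0.16, edgeR adjusted p = 0.00561). The epithelial keratin KRT18 fell, from 854 and 801 to 438 and 593 (-0.68 ± 0.19, edgeR adjusted p = 0.0370). Its partner KRT8, at 1247 and 1147 against 661 and 1110, and the prostate transcription factor HOXB13, at 260.3 and 274 against 278 and 384, did not pass. Of the markers of other cell types, CD3E, PECAM1 and CDH5 had 0 counts in all 4 libraries and PTPRC was at most 0.11. Of 4 fibroblast markers COL1A1 fell and LUM rose, COL1A2 and DCN stayed at or under 2.16, and the 4 summed to 59.7 and 53.9 in the controls against 33.7 and 45.6 in the knockouts; their part in the results was not tested.

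The replication genes did not move as a block. Of the 41, 7 rose (MCM6, GINS1, PRIM1, DSCC1, RPA2, FEN1 and CCNE2), 3 fell (MCM5, POLE and CLSPN) and 31 were not called. Called genes made up 24.4% of the 41, against 22.8% of all genes tested, so the share was near the background. By direction, 17.1% rose against 9.87% of all genes, and 7.32% fell against 12.9%. In the same fit, 12.2% of nuclear protein-coding genes, the class of all 41, rose and 11.2% fell. The median log2 fold change was -0.02 over the 41 and 0.00 over all genes, and single genes ranged from -0.86 (CLSPN) to 1.31 (MCM6). At an unadjusted p under 0.05, 11 were higher and 8 lower, where 17.9% of all genes were higher and 20.9% lower. Both knockouts lay above both controls in 14 genes (34.1%, against 31.8% of all genes) and below both in 18 (43.9%, against 34.1%). Positions of the called genes in GENCODE 29 (GRCh38) are as follows. Of the genes that rose, MCM6 lies at chr2:135839626-135876426, minus strand, GINS1 at chr20:25407727-25452628, plus strand, PRIM1 at chr12:56731596-56752373, minus strand, DSCC1 at chr8:119833976-119856010, minus strand. RPA2 lies at chr1:27891524-27914746, minus strand, FEN1 at chr11:61792637-61797244, plus strand, CCNE2 at chr8:94879770-94896678, minus strand. Of the genes that fell, MCM5 lies at chr22:35400063-35425430, plus strand, POLE at chr12:132623753-132687365, minus strand, CLSPN at chr1:35720218-35769967, minus strand. All 10 are annotated as protein-coding.

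The calls rested on both controls. Without control replicate 1 or without control replicate 3, 1 of the 41 rose and 0 fell in edgeR's test; MCM6 was the gene that rose each time. Of all genes 0.238% rose and 1.41% fell in the first case (1.65% called) and 0.793% rose and 2.35% fell in the second (3.15% called). Without knockout replicate 1, 9 rose and 16 fell, where 22.2% of all genes rose and 23.4% fell (45.7% called). Without knockout replicate 3, 16 rose and 8 fell, where 25.2% of all genes rose and 23.1% fell (48.3% called). DESeq2 called 9 higher and 4 lower among the 41 (10.4% and 11.9% of all genes). Upper quartile scaling gave 6 that rose and 5 that fell (8.82% and 13.5% of all genes), and library totals alone 9 and 1 (13.0% and 9.87%). Without a filter the counts were 10 and 5 (7.75% and 8.77%), and with at least 50 counts 6 and 5 (12.1% and 15.8%). A replicate block gave 8 and 4 (11.4% and 15.4%), nuclear protein-coding genes alone 3 and 3 (9.89% and 11.8%), and GC and length offsets 8 and 4 (13.2% and 12.2%). At an adjusted p under 0.01, 1 rose (MCM6) and 0 fell (2.00% and 3.74%).

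**Figure D1:**
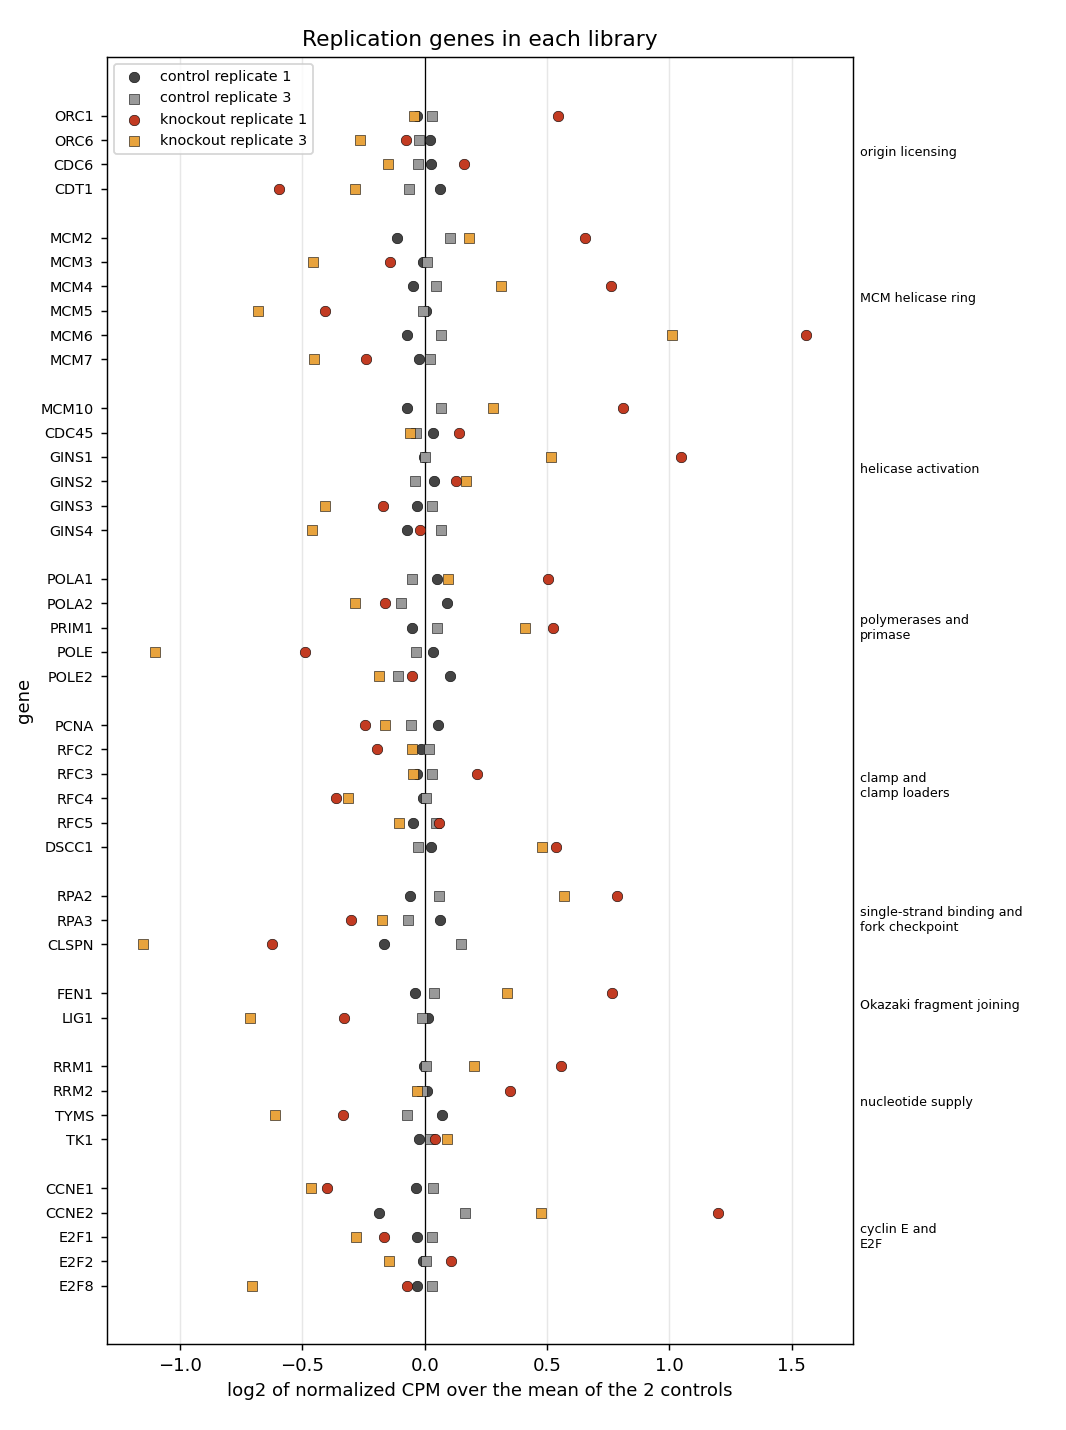
Level of each of the 41 replication genes in each library, as log2 of normalized CPM over the mean of the 2 controls (x axis), by role (y axis); circles are replicate 1 and squares replicate 3, grey for controls and coloured for knockouts. MCM6 stands farthest to the right in both knockouts and CLSPN and POLE farthest to the left in knockout replicate 3.

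The MCM ring, the hexameric motor that unwinds DNA ahead of the fork, was split between subunits. MCM6 had 36.6 and 40.3 normalized CPM in the controls against 113 and 77.4 in the knockouts, and rose 2.48-fold (1.31 ± 0.19, edgeR adjusted p = 0.00511). MCM2 was at 214 and 248 in the controls against 364 and 261 in the knockouts, and MCM4 at 184 and 196 and at 322 and 236. For both genes each knockout lay above each control, more so in replicate 1, and neither passed (0.44 ± 0.19 and 0.56 ± 0.18, edgeR adjusted p = 0.122 and 0.0524). DESeq2 called MCM4 (0.58, adjusted p = 0.0192). 23.6% of the exonic bases of MCM2 are shared with genes on the opposite strand.

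The other 3 subunits lay on the opposite side. MCM5 was at 345 and 342 in the controls against 259 and 214 in the knockouts and fell (-0.54 ± 0.16, edgeR adjusted p = 0.0397), a call lost when libraries were scaled by their totals alone (-0.42, adjusted p = 0.0927). MCM3, at 220.01 and 223 against 200.5 and 161, and MCM7, at 1191 and 1227 against 1025 and 884, had both knockouts below both controls without passing (-0.29 ± 0.15 and -0.34 ± 0.18, edgeR adjusted p = 0.198 and 0.197). The groups thus did not overlap for any of the 6 subunits, 3 of them higher in the knockouts and 3 lower, where 65.9% of all genes had groups that did not overlap. Summed over the ring, normalized CPM was 2190 and 2276 in the controls against 2284 and 1834 in the knockouts, so the sums overlapped.

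The spread between ring transcripts was narrower in the knockouts. Per kilobase of annotated exon, MCM6 was the lowest of the 6 in every library and MCM7 the highest. On that scale, MCM7 exceeded MCM6 by 30.6-fold and 28.6-fold in the controls but by 8.51-fold and 10.7-fold in the knockouts. MCM2, MCM3, MCM4 and MCM5 lay in between, with control means of 47.1, 60.6, 27.2 and 46.8 normalized CPM per kilobase. These lengths are those of GENCODE 29 and may differ from the annotation used for counting.

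**Figure D2:**
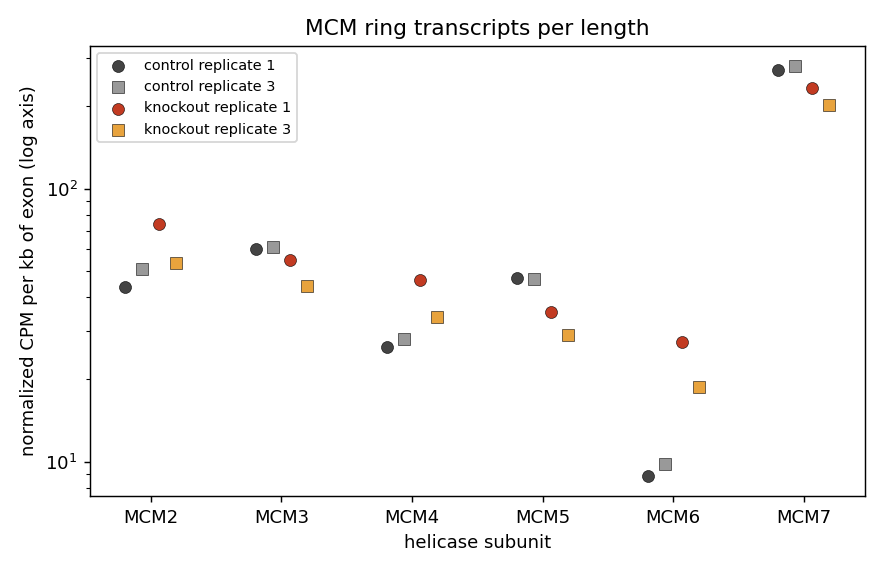
Transcript level of each MCM subunit per kilobase of exon (y axis, normalized CPM per kb, log scale) in each of the 4 libraries. MCM6 is lowest throughout and MCM7 highest, and the knockouts lie above the controls for MCM2, MCM4 and MCM6 and below them for MCM3, MCM5 and MCM7.

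None of the 4 licensing genes, which put the ring on DNA, passed edgeR's test; 0 of the 4 were higher and 1 lower at an unadjusted p under 0.05, a threshold that 17.9% and 20.9% of all genes passed in those directions. CDT1, which brings MCM to the origin, was at 272 and 249.1 in the controls against 172 and 214 in the knockouts (-0.43 ± 0.16, edgeR adjusted p = 0.0797). Both knockouts were below both controls. ORC1, the largest origin recognition subunit, was at 23.1 and 24.1 and at 34.5 and 22.9 (0.28 ± 0.21, edgeR adjusted p = 0.357). Knockout replicate 1 stood above the other 3 libraries. CDC6 (127 and 122 against 139 and 112) overlapped between groups, and ORC6 (79.0 and 76.4 against 73.6 and 64.6) differed by -0.17 ± 0.14.

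Among the factors that activate the helicase, GINS1 rose and the other 5 were not called. GINS1, a subunit of the 4-part GINS complex, went from 31.5 and 31.6 in the controls to 65.1 and 45.2 in the knockouts (0.81 ± 0.19, edgeR adjusted p = 0.0200). None of its 3 partners passed. GINS2 was at 75.4 and 71.5 and at 80.2 and 82.5, GINS3 at 44.2 and 46.2 and at 40.1 and 34.1, and GINS4 at 45.9 and 50.6 and at 47.6 and 35.1. Their log2 fold changes were 0.15 ± 0.13, -0.28 ± 0.15 and -0.22 ± 0.18, so the complex held values on both sides of 0. Opposite-strand genes cover 23.6% of the exonic bases of GINS4 and 10.9% of those of GINS3. MCM10, which helps start the helicase, was at 43.5 and 47.9 and at 80.2 and 55.5 (0.57 ± 0.19, edgeR adjusted p = 0.0588). CDC45, a core part of the active helicase, overlapped between groups, with 122 and 116 in the controls against 131 and 114 in the knockouts.

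The polymerases held 1 gene that rose and 1 that fell. POLE, the catalytic subunit of polymerase epsilon, which copies the leading strand, was at 286 and 271 in the controls against 198 and 129.9 in the knockouts and fell (-0.76 ± 0.20, edgeR adjusted p = 0.0286). Both knockouts were below both controls, replicate 3 the farther. Under library totals alone its call was lost (-0.65, adjusted p = 0.0629). Its partner POLE2 was at 25.7 and 22.1 and at 23.04 and 21.03, with overlapping groups. PRIM1, the small catalytic subunit of primase, rose from 45.5 and 48.8 to 67.9 and 62.6 (0.47 ± 0.14, edgeR adjusted p = 0.0413). Same-strand genes, NACA among them, cover 16.2% of the exonic bases of PRIM1, so part of its counts may be theirs. POLA1 and POLA2, the subunits of polymerase alpha that work with primase, did not pass (0.31 ± 0.17 and -0.22 ± 0.14, edgeR adjusted p = 0.220 and 0.275). A same-strand gene covers 35.1% of the exonic bases of POLA2.

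Of the sliding clamp and its loaders, 1 of 6 genes was called. PCNA, the clamp, had the highest control level per kilobase of all 41 genes (333 normalized CPM per kilobase) and stood at 508 and 471 in the controls against 413 and 438 in the knockouts (-0.20 ± 0.15, edgeR adjusted p = 0.369). The 4 small RFC subunits had log2 fold changes between -0.34 (RFC4) and 0.09 (RFC3), and none was called. RFC4 was at 120.2 and 121 in the controls against 93.8 and 97.1 in the knockouts, with no overlap (-0.34 ± 0.13, edgeR adjusted p = 0.0913). DSCC1, part of an alternative loader that acts in sister chromatid cohesion, rose from 21.7 and 21.0 to 31.0 and 29.8 (0.51 ± 0.15, edgeR adjusted p = 0.0453). The call on DSCC1 was lost in 7 of 16 alternatives.

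Single-strand DNA behind the helicase is coated by RPA. CLSPN encodes claspin, which relays the checkpoint signal from ATR to CHK1. RPA2 rose from 49.9 and 54.3 to 89.7 and 77.3 (0.68 ± 0.14, edgeR adjusted p = 0.0139). RPA3, the smallest subunit of the same trimer, was at 94.8 and 86.6 and at 73.7 and 80.3 (-0.24 ± 0.14, edgeR adjusted p = 0.233). The 2 subunits thus lay on opposite sides of the controls, both without overlap, where 65.9% of all genes had groups that did not overlap. CLSPN fell from 59.9 and 74.4 to 43.5 and 30.2 (-0.86 ± 0.20, edgeR adjusted p = 0.0188), the deepest fall of the 41. The Okazaki fragment genes split too. FEN1, the nuclease that trims flaps, rose from 99.998 and 105 to 175 and 129.8 (0.57 ± 0.17, edgeR adjusted p = 0.0418). LIG1, the ligase that seals the nick, was at 217 and 213 and at 171 and 131 (-0.51 ± 0.16, edgeR adjusted p = 0.0531; DESeq2 adjusted p = 0.0451, lower).

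No gene of nucleotide supply passed edgeR's test, with 1 of 4 higher and 1 lower at an unadjusted p under 0.05 (17.9% and 20.9% of all genes). TYMS, which makes thymidylate, was at 177 and 160.5 in the controls against 134 and 110.3 in the knockouts (-0.47 ± 0.15, edgeR adjusted p = 0.0559). 46.6% of its exonic bases are shared with genes on the opposite strand. RRM1, the large subunit of ribonucleotide reductase, was at 171 and 172 and at 253 and 197 (0.39 ± 0.16, edgeR adjusted p = 0.106). Groups did not overlap for 3 of the 4 genes (75.0%, against 65.9% of all genes), with RRM1 and TK1 higher in the knockouts and TYMS lower. RRM2, the small subunit that limits the enzyme in S phase, was at 312 and 308 and at 395 and 303, and TK1, the thymidine kinase of S phase, at 195 and 201 and at 204 and 211. With GC and length offsets TK1 was called (0.43, edgeR adjusted p = 0.0425). A same-strand gene covers 20.2% of the exonic bases of RRM2.

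Of the regulators, CCNE2 alone was called. It encodes cyclin E2, which drives CDK2 at the start of S phase, and rose from 13.3 and 16.9 to 34.7 and 21.0 (0.88 ± 0.25, edgeR adjusted p = 0.0376). CCNE1, its paralog, was at 17.7 and 18.5 and at 13.7 and 13.1 (-0.43 ± 0.17, edgeR adjusted p = 0.0980). Per kilobase of exon, the level of CCNE1 was 2.29 and 1.89 times that of CCNE2 in the controls, and 0.683 and 1.08 times in the knockouts. 37.1% of the exonic bases of CCNE2 are shared with genes on the opposite strand, INTS8 among them. The activators E2F1 (167 and 174 against 152 and 140.2) and E2F2 (91.2 and 91.9 against 98.6 and 82.8) did not pass (edgeR adjusted p = 0.259 and 0.953). The repressor E2F8 was at 25.5 and 26.5 and at 24.8 and 15.9, where knockout replicate 3 stood apart. RB1, which restrains the E2F activators, was at 32.2 and 28.5 and at 43.9 and 36.03 (0.40 ± 0.17, edgeR adjusted p = 0.113).

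The 2 knockout libraries differed from each other in these genes. Knockout replicate 1 was above knockout replicate 3 in 34 of the 41, against 49.8% of all genes tested, and by a median of 0.26 on the log2 scale. The number was 35 under RLE scaling (54.0% of all genes), 34 under upper quartile scaling (47.0%) and 38 under library totals (58.6%). The controls showed no such lean, with control replicate 1 the higher in 16 of 41. Relative to the control mean, the 41 had a median log2 ratio of 0.04 in the first knockout library and -0.15 in the other, where all genes had -0.06 and 0.00. Nuclear protein-coding genes, the class of all 41, had 0.01 in the first and 0.07 in the other. With 1 library each this comparison of libraries has no replicates and no test. All 7 genes that rose stood higher in replicate 1 than in replicate 3, and all 3 that fell stood lower in replicate 3. Replicate 1 was also the higher in 26 of 37 other origin and fork genes and 17 of 25 other nucleotide supply genes. The same held for 21 of 31 other E2F and RB network genes, 13 of 14 replication-coupled chromatin genes and 23 of 30 mitosis genes.

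**Figure D3:**
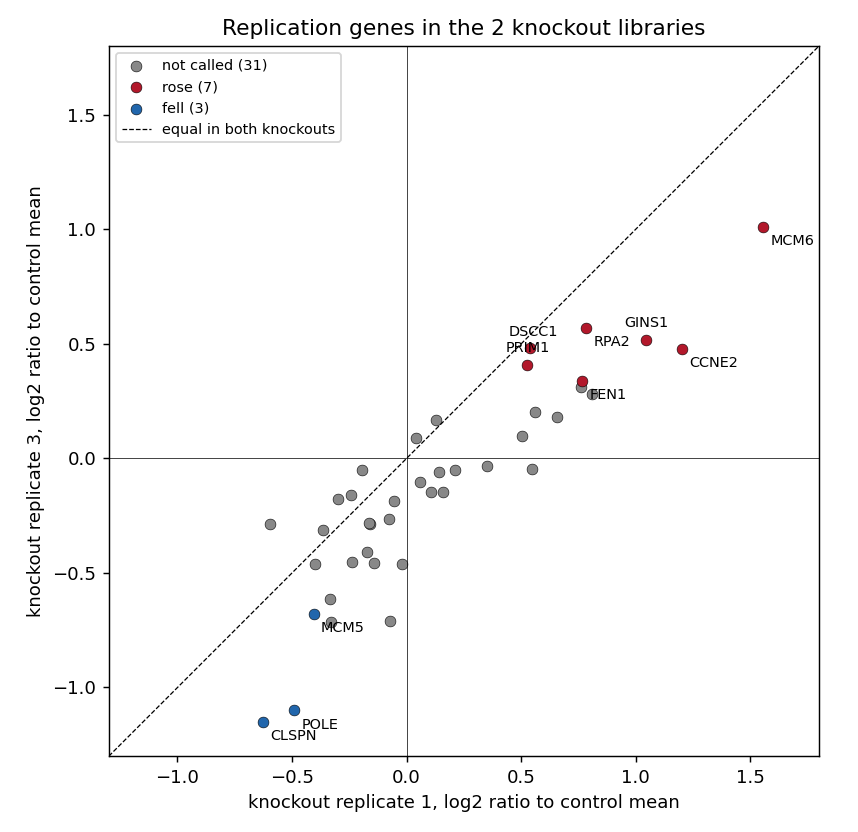
Each point is 1 of the 41 genes, with its log2 ratio to the control mean in knockout replicate 1 (x axis) and replicate 3 (y axis), coloured by call; the dashed line marks equal values. Points below the line, 34 of 41, are higher in replicate 1.

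Transcript base composition was compared between the called and uncalled genes, without a test. The longest transcript of the 7 genes that rose had a median GC content of 41.4% (36.9% to 53.7%), of the 3 that fell 55.6% (44.8% to 57.0%) and of the 31 not called 48.5% (39.1% to 64.9%), so the ranges overlapped. CLSPN, which fell, had 44.8% and FEN1, which rose, 53.7%. When each library was corrected for GC content and length, the 10 genes kept their call and direction, and MCM6 was at 1.21 (edgeR adjusted p = 0.00233) and CLSPN at -0.99 (edgeR adjusted p = 0.00461). Genes not called in the main fit moved too. TK1 went from 0.07 to 0.43 and was called (edgeR adjusted p = 0.0425). LIG1 was called at -0.51 (edgeR adjusted p = 0.0378). PCNA went from -0.20 to 0.002 and E2F1 from -0.22 to 0.02.

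Other genes of the pathway, from lists that exclude the 41, likewise held both directions. Of nuclear protein-coding genes, the class of all genes in these lists, 12.2% rose and 11.2% fell. Of 37 other origin and fork genes 7 rose and 5 fell (18.9% and 13.5%, against 9.87% and 12.9% of all genes tested). The small polymerase epsilon subunit POLE3 rose (0.90 ± 0.16, edgeR adjusted p = 0.00839) while POLE fell, and RPA1, the large RPA subunit, rose with RPA2 (0.71 ± 0.15, edgeR adjusted p = 0.0146). Of the alternative clamp loader that contains DSCC1, CHTF8 rose (0.73 ± 0.14, edgeR adjusted p = 0.0108) and CHTF18 fell, from 349 and 328 to 142 and 138 (-1.27 ± 0.14, edgeR adjusted p = 0.00287). Among DSCC1, CHTF8 and CHTF18, 2 thus rose and 1 fell. The origin subunit ORC5 rose (0.73 ± 0.15), and the helicase RECQL4 (-0.81 ± 0.14) and the PCNA unloader ATAD5 (-0.87 ± 0.20) fell.

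Of 25 other nucleotide supply genes 6 rose and 2 fell (24.0% and 8.0%, against 9.87% and 12.9% of all genes tested). RRM2B, the p53-inducible small subunit of ribonucleotide reductase, rose from 12.05 and 12.9 to 29.1 and 29.8 (1.24 ± 0.16, edgeR adjusted p = 0.00380), beside RRM2, which was not called. The deoxycytidine kinase DCK (1.04 ± 0.15) and the folate enzyme MTHFD2 (0.78 ± 0.15) rose, and NME1 (-0.74 ± 0.16) and the pyrimidine enzyme CAD (-0.63 ± 0.15) fell. Opposite-strand genes cover 33.2% of the exonic bases of MTHFD2, and a same-strand gene covers 18.6% of those of NME1. Of 31 tested genes of the E2F and RB network 8 rose and 1 fell (25.8% and 3.23%). CDK4 (1.21 ± 0.14), CDK6 (0.88 ± 0.16) and SKP2, a ubiquitin ligase subunit that targets p27 (0.81 ± 0.15), rose. CCNA2 (0.66 ± 0.17) and CKS1B (0.64 ± 0.14) rose as well. So did the cyclin-dependent kinase inhibitors CDKN2C (0.66 ± 0.14), CDKN1B, which encodes p27 (0.46 ± 0.14), and CDKN1A. The level of CDKN1A went from 93.1 and 98.8 to 148 and 300 (1.22 ± 0.28, edgeR adjusted p = 0.0183). LIN37, a part of the repressive DREAM complex, fell (-1.07 ± 0.23). Opposite-strand genes cover 43.2% of the exonic bases of CDK4 and 41.8% of those of LIN37.

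Of 14 replication-coupled chromatin genes 2 rose and 4 fell (14.3% and 28.6%, against 9.87% and 12.9% of all genes tested). The FACT subunits SUPT16H (0.69 ± 0.17) and SSRP1 (0.52 ± 0.16), which move nucleosomes aside, rose together. The histone chaperone NASP (-0.80 ± 0.15), the fork repair factor TONSL (-0.95 ± 0.14) and the remodeller HELLS (-0.81 ± 0.15) fell. Of 30 mitosis genes 5 rose and 4 fell (16.7% and 13.3%). MAD2L1 (1.22 ± 0.14), ECT2 (0.99 ± 0.20) and BUB1 (0.60 ± 0.15) rose, and UBE2C (-0.69 ± 0.14), AURKB (-0.66 ± 0.14) and CENPE (-0.72 ± 0.18) fell. The medians of the 5 lists in the order given were 0.00, 0.23, 0.32, -0.28 and 0.19. For the counts that follow, the shares of all genes with each library left out are given above. Over all 5 lists 28 rose and 16 fell, and these counts were 1 and 1 without control replicate 1, 4 and 1 without control replicate 3, 46 and 41 without knockout replicate 1 and 66 and 24 without knockout replicate 3.

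**Figure D4:**
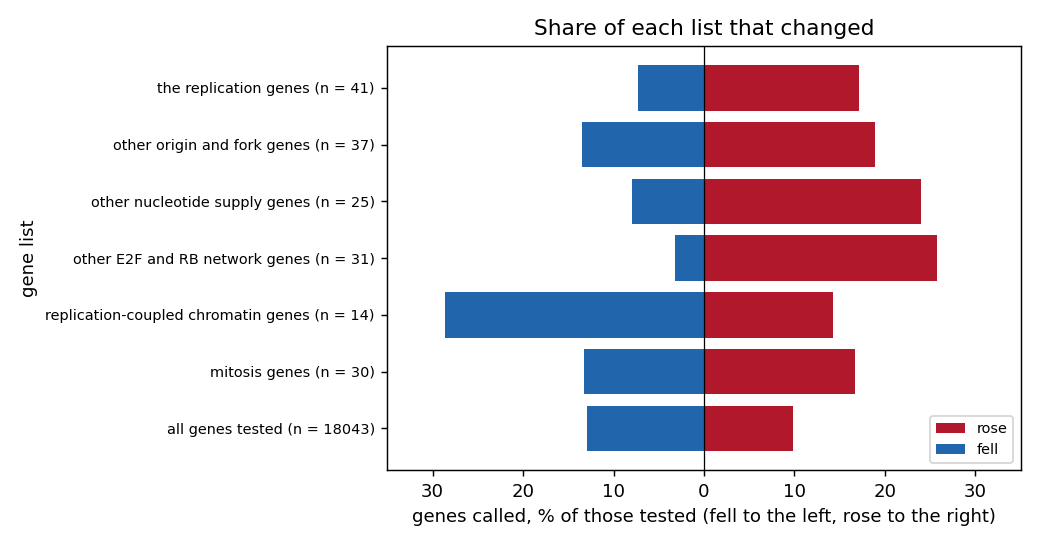
Percentage of the genes of each list that fell (left of 0) or rose (right of 0) in edgeR's test, with the number tested in brackets on the y axis. The 41 replication genes had 17.1% higher and 7.32% lower, against 9.87% and 12.9% of all genes tested in the bottom bar. Of nuclear protein-coding genes, which are not drawn, 12.2% rose and 11.2% fell.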

How the data were processed

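The authors deposited raw counts for each gene in 4 libraries as 1 table. The submitters' processing notes list Trimmomatic 0.36, STAR 2.5.2b, featureCounts and Subread 1.5.2, with the GRCh38 build. Neither the annotation release nor how strand and multi-mapped reads were handled is stated, so reads of overlapping genes on opposite strands may be mixed.

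The 486 rows without a gene name (0.0191% to 0.0290% of counts) were left out. Counts were filtered with filterByExpr, scaled by TMM and tested by the quasi-likelihood method of edgeR 4.0.16 (R 4.3.3, robust=TRUE), with group alone in the model and 2 residual degrees of freedom. SE is the absolute log2 fold change over the square root of F. The fit was tested on simulated data. Alternatives were other scalings and filters, DESeq2 1.42.0, limma 3.58.1 voom, robust=FALSE, a replicate block, each library left out, an adjusted p under 0.01, nuclear protein-coding genes alone, and GC and length offsets. With 2 libraries a group, an exact permutation test cannot go below p = 0.333. Positions, lengths and exonic overlap came from GENCODE 29, and promoters from RefSeq.

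The 41 genes and all lists were chosen with earlier results of these data known. Values in every library are given at least for called genes and the 2 of each role with the smallest p. Of each other list the 3 called genes with the smallest p in each direction are named. RB1 is given because it restrains E2F. RPA1, TOPBP1, TIMELESS, UHRF1, CCNA2, CKS1B, CDKN1A, CDKN1B and CDKN2C were named after their values were seen.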

Additional observations from a re-analysis of the deposited data

How the results depend on the processing

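The direction of all 10 called replication genes held in all 16 alternatives, and MCM6 kept its call in each (log2 fold change 1.02 to 1.63, highest adjusted p 0.0461). The other 9 lost their call without either control and at an adjusted p under 0.01; PRIM1, DSCC1, FEN1 and CCNE2 also lost it with nuclear protein-coding genes alone, and CCNE2 with limma voom. Among the 41, the number that rose was 3 with nuclear protein-coding genes alone and 1 at an adjusted p under 0.01 (0 fell), and the number that fell was 5 under upper quartile scaling, without a filter and with at least 50 counts, and 1 under library totals alone. Over single libraries left out, 1 to 16 rose and 0 to 16 fell, and the median ran from -0.13 to 0.11; it was 0.0915 under library totals alone, where the median of all genes was 0.10. All genes that rose and fell numbered 361 and 675 at an adjusted p under 0.01, and 45 to 4795 and 267 to 4471 with 1 library left out. The 5 other lists gave 6 and 5 at an adjusted p under 0.01, and 1 to 66 and 1 to 41 with 1 library left out. TOPBP1, TIMELESS and UHRF1 changed direction with the knockout library left out: they were at -0.32, -0.37 and -0.43 without knockout replicate 1 and at 0.44, 0.39 and 0.26 without knockout replicate 3. The cause of these shifts was not tested; with a library left out, 1 residual degree of freedom remains and the single library left in its group takes its spread from the other group. With the replicate number as a block, 8 of the 41 rose and 4 fell. Replicate differences in controls and knockouts correlated at -0.031 across genes. No label says whether equal numbers mark a shared batch, and this correlation of single libraries cannot settle it. With 2 libraries a group, a difference that did not pass is not shown to be absent.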
